A study of Mus musculus with 14 samples.

Results

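Krt7, Krt19, Epcam, Sox9, Spp1, Prom1, Cd24a and Cldn4 are markers of bile duct cells and of liver progenitor cells, and their expression was followed in male and female mouse liver from 3 to 8 wk of age. These 8 genes were taken by name and located through the RefSeq accession of each probe. They had 10 of the 39429 probes on the array and were 8 of the 19751 genes to which a probe could be assigned. Of these 8 genes, 7 were bright enough to test in at least 1 comparison, against 15308 of all 19751 genes.

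Livers were from CD-1 mice, an outbred stock. The labels name neither a treatment nor an engineered allele, so the groups differed in sex and age: males (M3) and females (F3) at 3 wk, M4 and F4 at 4 wk, and M8 and F8 at 8 wk. Males were set against females at each age (M3/F3, then M4/F4, then M8/F8), and 8 wk against the younger ages within males (M8/M3 and M8/M4) and within females (F8/F3 and F8/F4). Each of these 7 comparisons had 2 Agilent 2-colour arrays with exchanged dyes, and the 2 arrays were hybridized with different pools of whole liver RNA. A pool combined 5 mice at 3 wk and 6 mice at 4 or 8 wk. The same pools were used in several comparisons, so comparisons that have a group in common are not independent of each other. A ratio of 2 whole livers cannot tell fewer cells of a type from less RNA per cell, and duct cells are a small part of liver.

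Bile ducts are lined by cholangiocytes, epithelial cells that carry keratin filaments and modify the bile that hepatocytes secrete. Cholangiocytes and hepatocytes both arise from hepatoblasts of the fetal liver, and Notch signalling and the transcription factor SOX9 act in forming the ducts. When hepatocytes are damaged and cannot divide, cells with duct markers can expand from the portal region, and such cells are often called progenitor or oval cells. Several of these markers are made elsewhere in liver too: hepatocytes, mesothelial cells of the liver surface, macrophages and immature blood cells each express some of them.

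Between 55.2% and 77.2% of the spots in a channel were well above background, the condition of the scanner software for a signal distinct from its surroundings, and no spot was saturated. Ddx3y, a Y-linked gene, was higher in males in all 3 sex comparisons, by log2 ratios of 6.29 to 6.58. Xist, the RNA of the inactive X, was lower in males by log2 ratios of -6.65 to -5.32, so on these arrays the dyes ran as labelled. The age comparisons set a sex against itself and are not checked by these genes. All 8 hepatocyte markers examined (Alb, Apoa1, Apob, Ttr, Hnf4a, Cps1, Ass1 and Tat) were well above background, and their summed processed signal per pool was 633000 to 739000 over the 6 groups. Of these, Alb was called down in males in M8/M3 (fitted log2 -0.71) and M8/M4 (fitted log2 -0.68), with arrays far apart at -1.10 and -0.33 and at -1.14 and -0.21. Tat was called up in F8/F4 (0.77 and 0.52, fitted log2 0.65, adjusted p = 0.000149), and no other call was made among them.

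The largest change among these genes was a decrease of Prom1 in males. Prom1 expression fell about 10.3-fold from 3 to 8 wk in male liver and about 1.53-fold in female liver, so that adult males had 8.59-fold less than adult females. Cd24a fell in both sexes, by 2.64-fold to 3.35-fold. Smaller decreases with age were seen for Sox9, Krt7 and Krt19, Spp1 was higher in males at 4 wk, Epcam was called nowhere, and Cldn4 was too dim to test. A gene was called when limma gave an adjusted p below 0.05, when the ratio was beyond 1.5-fold, and when both arrays had a signal well above background for 1 or both of the groups.

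By this rule 6 of the 8 genes were called in at least 1 comparison, and 5 of them were called down with age. None was called up with age, where 8.66% of all tested probes were called up for M8/M3 and 5.06% for M8/M4, and 5.81% for F8/F3 and 2.86% for F8/F4. In M8/M3, Krt7, Krt19, Prom1 and Cd24a were called (4 of 7 tested genes, all down), beside 9.34% of all tested probes called down. In M8/M4, Krt19, Sox9, Prom1 and Cd24a were called down (4 of 7), beside 5.98% of all tested probes. In F8/F3, Krt7, Sox9, Prom1 and Cd24a were called down (4 of 7), beside 6.02% of all probes, and in F8/F4 Sox9, Prom1 and Cd24a were (3 of 7), beside 3.29%. The 7 tested genes had a median log2 ratio of -0.66 for M8/M3 and -0.59 for M8/M4, and of -0.61 for F8/F3 and -0.27 for F8/F4, while the median over all tested probes was 0.02 in each.

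Fewer of the genes were called between the sexes. In M3/F3 none was called, beside 0.658% of all tested probes in either direction, and 1 of 7 had an unadjusted limma p below 0.05. In M4/F4, Spp1 was called up and Prom1 down, beside 1.77% of probes. In M8/F8, Prom1 was called down, beside 6.98% of probes. The change with age differed between the sexes for Prom1 and for no other tested gene: the interaction was called for 1 of 7 genes from 3 to 8 wk, beside 4.18% of probes, and for 1 of 7 from 4 to 8 wk, beside 1.84%. The step from 3 to 4 wk was not hybridized directly. Read through the shared 8 wk groups, no gene was called in M4/M3 or F4/F3, beside 0.291% and 0.126% of probes, although 2 and 1 genes had an unadjusted limma p below 0.05.

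**Figure D1:**
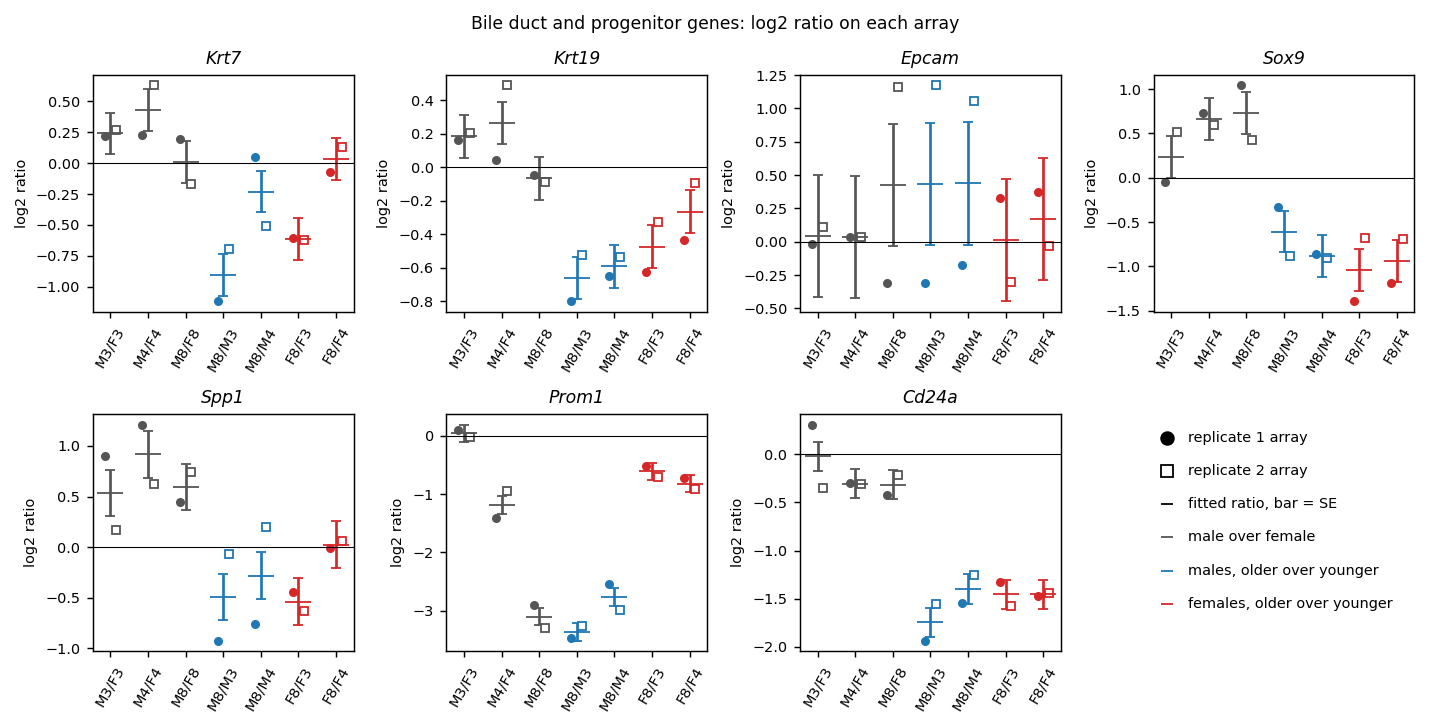
Log2 ratio of the main probe of each of the 7 tested genes (vertical axis, scale differs between panels) in the 7 comparisons, with a point for each of the 2 arrays and a bar for the fitted ratio ± SE. Prom1 lies between -3.47 and -2.54 on the arrays of M8/F8, M8/M3 and M8/M4 and between -0.92 and -0.52 in the females, and the 3 arrays with the second M8 pool stand apart for Epcam.

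Prom1 encodes prominin-1 (CD133), a cholesterol-binding glycoprotein of membrane protrusions that marks many stem and progenitor cells and the apical surface of duct cells. Its 2 probes carry the accessions NM_001163577 (the brighter, used as the main probe) and NM_008935. In RefSeq, Prom1 has 2 annotated starts on the minus strand of chromosome 5 (GRCm38.p6). The 250 bases before each are shown because Prom1 changed most among these genes. The upstream start has its window at chr5:44101737-44101986 and the downstream start at chr5:44094769-44095018. Capitals mark matches on either strand, and no matches overlap. The motifs are GGGCGG (of SP1), TGANTCA (a looser form of the AP-1 motif), TGGGAA (of the Notch partner RBPJ) and CCAAT (of NF-Y).
Prom1 upstream start: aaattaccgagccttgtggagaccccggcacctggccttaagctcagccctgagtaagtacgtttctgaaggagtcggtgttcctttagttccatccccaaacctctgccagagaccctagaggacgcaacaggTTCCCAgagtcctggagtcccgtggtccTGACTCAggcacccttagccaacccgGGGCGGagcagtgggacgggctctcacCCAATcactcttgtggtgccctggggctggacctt
Prom1 downstream start: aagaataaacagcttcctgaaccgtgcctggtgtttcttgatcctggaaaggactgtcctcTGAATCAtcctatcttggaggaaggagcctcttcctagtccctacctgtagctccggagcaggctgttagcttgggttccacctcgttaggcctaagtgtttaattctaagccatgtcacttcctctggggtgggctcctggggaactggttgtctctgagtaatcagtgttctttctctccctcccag

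Counting back from the base before the start as -1, the upstream window held TGGGAA on the reverse strand at -116, TGANTCA at -88, GGGCGG at -62 and CCAAT at -35. The downstream window held TGANTCA at -189. Both Prom1 windows thus match TGANTCA, as TGACTCA upstream and as TGAATCA downstream. It is in 6.75% of the 32851 windows of the same length, and in 3 of the 7 windows of these genes, Cldn4 included. The other motifs are more common, TGGGAA in 21.6% of all windows, GGGCGG in 32.7% and CCAAT in 33.8%. TTCNNNGAA, the STAT motif, was in neither window and is in 7.02% of all windows. A match of letters is a description of the window and says nothing of binding.

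Prom1 was at like levels in both sexes at 3 wk. The log2 M3/F3 ratio was 0.10 on the first array and -0.01 on the second, a fitted ratio of 0.04 ± 0.15 (SE, n = 2 arrays; adjusted p = 0.889), with a 95% interval of -0.30 to 0.39. At 4 wk males were lower, with log2 M4/F4 ratios of -1.42 and -0.95 (fitted -1.18, 95% interval -1.53 to -0.84, adjusted p = 0.00143). At 8 wk the M8/F8 ratios were -2.91 and -3.30 (fitted -3.10 ± 0.15, adjusted p = 3.03e-05). The sex difference thus lay on the same side of 0 on all 4 arrays of 4 and 8 wk, and neither array of 3 wk was near them.

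Within males, the log2 M8/M3 ratio of Prom1 was -3.47 and -3.26 (fitted -3.36, adjusted p = 2.58e-05) and the M8/M4 ratio was -2.54 and -2.98 (fitted -2.76, a 6.79-fold decrease, adjusted p = 4.36e-05). Within females the decrease was smaller, with F8/F3 ratios of -0.52 and -0.70 (fitted -0.61, adjusted p = 0.0238) and F8/F4 ratios of -0.72 and -0.92 (fitted -0.82, a 1.76-fold decrease, adjusted p = 0.00722). The male and female arrays did not overlap at either age step. The F8/F3 call of Prom1 was lost under 6 of 28 alternative settings, among them the leaving out of either F8/F3 array (adjusted p = 0.106 without the first and 0.172 without the second), and the F8/F4 call was lost without the second F8/F4 array (adjusted p = 0.0763).

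The difference between the sexes in this change was itself tested. From 3 to 8 wk Prom1 fell more in males than in females (difference of log2 ratios -2.75, 95% interval -3.24 to -2.26, adjusted p = 0.000808), and from 4 to 8 wk the difference was -1.94 (95% interval -2.43 to -1.45, adjusted p = 0.00652). M8/M3 and F8/F3 arrays were scanned on different days, whereas M8/M4 and F8/F4 were scanned on the same day. The same difference can be read from the arrays of the sex comparisons, which share the pools: M8/F8 minus M3/F3 was -3.14 (-3.00 and -3.28 for the 2 replicates), and M8/F8 minus M4/F4 was -1.92 (-1.49 and -2.35). The interaction from 4 to 8 wk lost its call without the second M8/M4 array (adjusted p = 0.0606), the first F8/F4 array (adjusted p = 0.0754) or the second F8/F4 array (adjusted p = 0.0617) and without the 3 arrays of the second M8 pool (adjusted p = 0.0886). The one from 3 to 8 wk kept it under all 28 alternatives.

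The second Prom1 probe showed the same order of changes. Its log2 ratio was -3.70 in M8/F8, -3.98 in M8/M3, -2.86 in M8/M4 and -1.15 in M4/F4, all 4 called, and the interactions of -3.55 and -2.24 were called too. Its F8/F3 ratio of -0.43 (adjusted p = 0.188) and F8/F4 ratio of -0.61 (adjusted p = 0.072) were not called, so the probes disagree on the call in females. This probe was well above background in 27 of 28 channels, the exception being M8 on the second M8/F8 array.

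The processed signal of the main Prom1 probe, on a log2 scale and scaled to a common 75th percentile, placed the groups in an order. M8 was lowest (pools at 7.50 and 7.42), followed by M4 (9.80 and 10.43) and F8 (10.55 and 10.52). M3 (11.26 and 11.12), F3 (11.14 and 11.27) and F4 (11.31 and 11.45) were highest. M3 and F3 overlapped each other, and the pools of F4 lay just above both. M8 overlapped no other group.

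**Figure D2:**
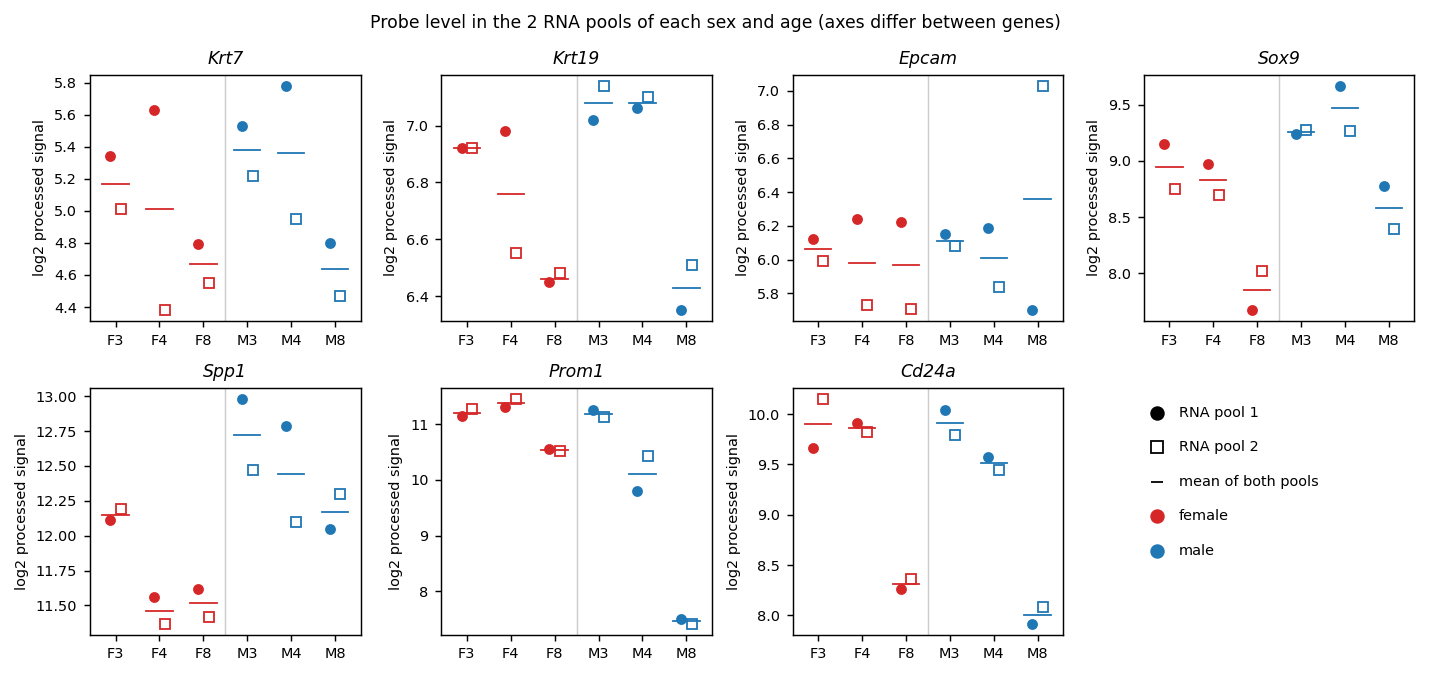
Log2 processed signal of the main probe, scaled to a common 75th percentile (vertical axis, scale differs between genes), in the 2 RNA pools of each sex and age, with a line at their mean. The Prom1 pools of M8 lie at 7.50 and 7.42 and those of F8 at 10.55 and 10.52, and the Cd24a pools at 8 wk lie below all younger pools in both sexes.

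Prom2, which encodes the related prominin-2, was also lower in males. Its log2 ratio was -1.95 and -1.40 in M3/F3, -1.36 and -1.43 in M4/F4 and -3.17 and -2.73 in M8/F8 (fitted -1.67, -1.39 and -2.95, all called, adjusted p = 0.0133, 0.0277 and 0.00115). Thus Prom2, unlike Prom1, was called lower in males already at 3 wk, where M3 was well above background on 1 of 2 arrays. It rose 5.35-fold in F8/F3 (1.96 and 2.88, adjusted p = 0.00274), where Prom1 fell, and its M8/M3 ratios of -0.21 and 1.48 did not hold a direction. Its interactions with sex were not called (fitted -1.79, adjusted p = 0.0818, from 3 to 8 wk, and -1.97, adjusted p = 0.109, from 4 to 8 wk).

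The 3 genes whose log2 ratios over the 14 arrays were most like those of Prom1, among 12304 genes well above background in every channel, were Sigirr (Pearson r = 0.982), Cyp3a44 (r = 0.979) and Lacc1 (r = 0.972). Arrays share pools, so these are descriptions of 14 points that are not independent. Cyp3a44, a female-biased cytochrome P450, had M8/F8 ratios of -6.41 and -7.05, M8/M3 ratios of -6.67 and -6.24 and F8/F3 ratios of 0.07 and 0.65. Lacc1, a laccase-domain enzyme of macrophages, had M8/F8 ratios of -0.98 and -1.02. Sigirr, an inhibitory receptor of the interleukin-1 family, had M8/F8 ratios of -0.42 and -0.52, under the fold threshold, so likeness of pattern did not mean likeness of size.

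**Figure D3:**
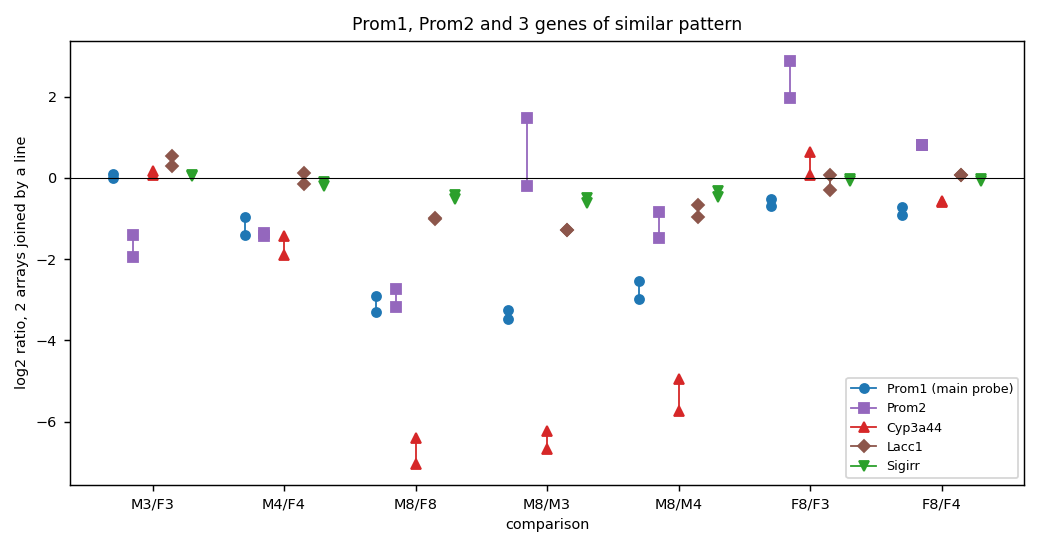
Log2 ratio on the 2 arrays of each of the 7 comparisons (joined by a line) for Prom1, Prom2 and the 3 genes of most similar pattern to Prom1. Prom1, Prom2 and Cyp3a44 all lie below -2.5 in M8/F8, but in F8/F3 Prom2 lies at 1.96 and 2.88 while Prom1 lies at -0.52 and -0.70.

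Cd24a encodes a small, heavily glycosylated surface protein anchored by lipid, made by duct and progenitor cells and also by immature red cells and B cells. It decreased in both sexes from 3 wk and from 4 wk. The log2 ratio was -1.93 and -1.56 in M8/M3 (fitted -1.75, 3.35-fold, adjusted p = 0.000274) and -1.54 and -1.26 in M8/M4 (fitted -1.40, 2.64-fold, adjusted p = 0.000709). In females it was -1.32 and -1.58 in F8/F3 (2.74-fold, adjusted p = 0.000603) and -1.47 and -1.44 in F8/F4 (2.74-fold, adjusted p = 6e-04). All 8 age arrays lay below 0, from -1.93 to -1.26, and the 4 calls were kept under all 28 alternatives.

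No difference between the sexes was called for Cd24a. Its log2 M8/F8 ratio was -0.43 and -0.21 (fitted -0.32, adjusted p = 0.184), and the interactions were -0.29 (adjusted p = 0.475) from 3 to 8 wk and 0.06 (adjusted p = 0.947) from 4 to 8 wk. For Cd24a, pools of both sexes at 8 wk (7.92 to 8.36) lay below all pools at 3 and 4 wk (9.45 to 10.15).

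Genes of immature red cells and of dividing cells moved with Cd24a. Of the erythroid markers, 5 of 8 tested were called down in each age comparison of males and 6 of 9 in each of females. Over all tested probes the share called down was 9.34% for M8/M3 and 5.98% for M8/M4, and 6.02% for F8/F3 and 3.29% for F8/F4. Gata1, the erythroid transcription factor, and Epb42, of the red cell membrane, were well above background in neither 8 wk group, so their folds are bounds against the lowest detected signal. Gata1 was at least 1.5-fold lower in M8/M3 (adjusted p = 1.45e-05) and at least 1.97-fold lower in F8/F3 (adjusted p = 3.14e-05). For Epb42 the bounds were 1.55-fold (adjusted p = 3.68e-05) and 2.06-fold (adjusted p = 2.79e-05). Alas2, of heme synthesis, rose in M8/M3 (log2 1.37) and M8/M4 (log2 0.98). The summed processed signal of the 9 erythroid genes was 65300 to 77700 in the pools of 3 and 4 wk and 39300 to 47600 in those of 8 wk, and none of the 9 was below background throughout. All 8 cell division genes (such as Mki67, Cdk1 and Aurkb) were called down in all 4 age comparisons, beside the same shares of all probes, with a summed signal of 6180 to 13100 at 3 and 4 wk and 743 to 912 at 8 wk.

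Kif22, a kinesin of the mitotic spindle, was the gene of most similar pattern to Cd24a (r = 0.98 over 14 arrays), ahead of Fam98a (r = 0.977) and Pank2 (r = 0.976). Kif22 had log2 ratios of -1.99 for M8/M3 and -1.65 for F8/F3. Among the B cell markers, Vpreb3, of precursor B cells, was called down in M8/M3 (log2 -1.15) and F8/F3 (log2 -0.88), 1 of 4 tested in each beside 9.34% and 6.02% of all probes. The part of blood cell precursors and dividing cells in the Cd24a result was not tested.

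**Figure D4:**
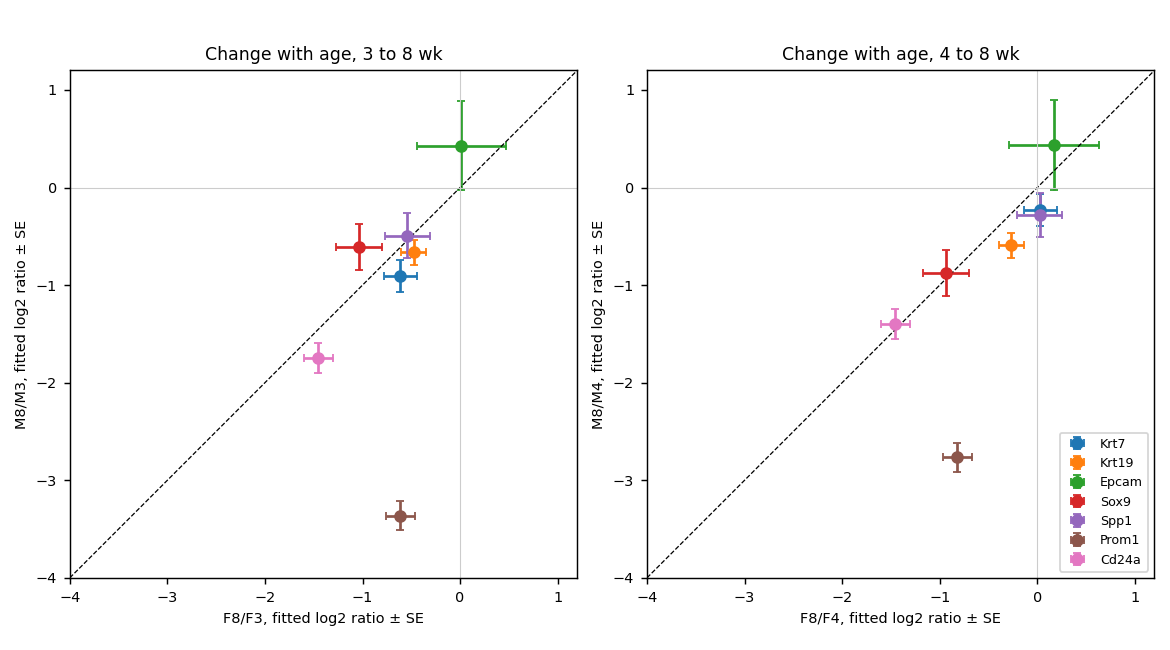
Fitted log2 ratio ± SE in males (vertical) against females (horizontal) for the 7 tested genes, from 3 to 8 wk on the left and from 4 to 8 wk on the right, with a dashed line where both sexes change alike. Prom1 lies far below the line (-3.36 against -0.61 and -2.76 against -0.82), and Cd24a is low in both sexes (-1.75 against -1.45 and -1.40 against -1.45).

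Sox9 encodes the transcription factor of duct cells and of the hepatocytes nearest to the ducts. It was spotted 10 times on the array, and the spots were averaged. Its log2 ratio was -1.39 and -0.68 in F8/F3 (fitted -1.04, 2.05-fold, adjusted p = 0.0179), -1.19 and -0.69 in F8/F4 (1.92-fold, adjusted p = 0.0265) and -0.86 and -0.90 in M8/M4 (1.84-fold, adjusted p = 0.0339), all 3 called down. In M8/M3 it was -0.34 and -0.88 (fitted -0.61, adjusted p = 0.112), not called, although 3 alternative settings called it. These were shared pools in the covariance (adjusted p = 0.048), 6 group means (adjusted p = 0.0291) and error-weighted means. The last gave an unadjusted normal p of 8.61e-05 against its own threshold of 1e-04. All 8 age arrays lay below 0, but no interaction with sex was called (adjusted p = 0.503 and 0.962).

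The Sox9 calls were sensitive to single arrays. The F8/F3 call was lost without the first F8/F3 array (fitted -0.69, adjusted p = 0.21), the F8/F4 call without either F8/F4 array (adjusted p = 0.246 and 0.0719) or the second M4/F4 array (adjusted p = 0.0592), and the M8/M4 call without either M8/M4 array (adjusted p = 0.133 and 0.214). Leaving out the 3 arrays of the second M8 pool ended all 3 calls (adjusted p = 0.266 for M8/M4, 0.0739 for F8/F3 and 0.0896 for F8/F4), and 5 further settings ended that of M8/M4. Between the sexes Sox9 was higher in males on 5 of 6 arrays, with M4/F4 ratios of 0.73 and 0.60 (fitted 0.66, adjusted p = 0.0863) and M8/F8 ratios of 1.04 and 0.42 (fitted 0.73, adjusted p = 0.0632), and neither passed the threshold. Both were called in 4 alternative settings (adjusted p = 0.0398 and 0.037 with normexp and loess, for example). The 95% intervals were 0.12 to 1.21 and 0.19 to 1.28.

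F8 was the lowest group for Sox9 (pools at 7.67 and 8.02), followed by M8 (8.78 and 8.39), and these groups did not overlap. F4 (8.97 and 8.70) and F3 (9.15 and 8.75) overlapped each other and M8, and M3 (9.24 and 9.28) and M4 (9.67 and 9.27) were highest. Unc119 (r = 0.971), Pnrc1 (r = 0.965) and Znhit3 (r = 0.961) had the most similar patterns.

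Of 16 Notch pathway genes, whose signal acts upstream of Sox9 in duct formation, 14 were tested in each age comparison. In males the test called 1 up and 5 down from 3 wk (M8/M3) and 0 up and 3 down from 4 wk. In females it called 1 up and 2 down from 3 wk (F8/F3) and 1 up and 1 down from 4 wk. Over all tested probes, 8.66% were called up and 9.34% down for M8/M3, 5.06% and 5.98% for M8/M4, 5.81% and 6.02% for F8/F3, and 2.86% and 3.29% for F8/F4, so a single call of 14 was near the general rate. The Notch targets Heyl and Nrarp fell in M8/M3 (log2 -1.20 and -0.95) and F8/F3 (log2 -0.80 and -0.69), whereas the receptor Notch1 rose in both (log2 1.23 and 1.12). Dll1, a ligand, was lower in M8 than in F8 (log2 -0.98, adjusted p = 0.00175). Hes1, another target, was called in no age comparison and was higher in M3 than in F3 (log2 0.60, adjusted p = 0.00194). The interaction with sex was called down for 2 of 14 from 3 to 8 wk, beside 4.18% of all probes in either direction. From 4 to 8 wk it was called for 1 of 14, beside 1.84%. The tested Notch genes had a median log2 ratio of -0.36 for M8/M3 and of -0.10 for F8/F3, so the direction was mixed. Notch genes act in endothelium and portal mesenchyme too, and whole liver does not separate these sources.

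Of 11 YAP and TEAD pathway genes, which act in the growth of ducts, all were tested. In M8/M3, 1 was called up (Ccn1, log2 0.71) beside 8.66% of all probes and 3 down beside 9.34%, and in F8/F3 1 was called down beside 6.02%, so the single calls were near the share of all probes. Tead2, a DNA-binding partner of YAP, fell at both steps in males (log2 -1.21 from 3 wk and -1.28 from 4 wk) and in females (log2 -1.10 and -0.68). Tead1 fell in males (log2 -1.03 in M8/M3) and was lower in M8 than in F8 (log2 -0.67). Over the 11 genes, 1 was called up and 2 down in M8/M4 (beside 5.06% and 5.98%), and 1 down in F8/F4 (beside 3.29%). In M8/F8 1 was called down, beside 6.98% of all probes in either direction. In M3/F3 1 was called up and 1 down, beside 0.658%.

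Krt7 and Krt19 encode the keratins that, with their partners, form the filaments of duct epithelium and are absent from normal hepatocytes. Krt7 starts on the plus strand of chromosome 15, and the 250 bases before its start (GRCm38.p6, chr15:101412153-101412402) are shown as the duct keratin for which the table holds a promoter. The 4 matches to GGGCGG, on either strand, are in capitals. GGGCGG is in 32.7% of all windows of this length.
Krt7: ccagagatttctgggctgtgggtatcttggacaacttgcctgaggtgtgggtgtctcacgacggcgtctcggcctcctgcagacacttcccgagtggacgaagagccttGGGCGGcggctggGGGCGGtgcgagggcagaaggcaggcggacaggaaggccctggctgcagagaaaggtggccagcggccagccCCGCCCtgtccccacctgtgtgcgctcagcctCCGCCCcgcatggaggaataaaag

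Krt7 fell from 3 to 8 wk. Its log2 ratio was -1.12 and -0.70 in M8/M3 (fitted -0.91 ± 0.17, 1.87-fold, adjusted p = 0.0077) and -0.60 and -0.62 in F8/F3 (fitted -0.61, 1.53-fold, adjusted p = 0.0364). In M8/M4 it was 0.05 and -0.51 and in F8/F4 -0.07 and 0.13, neither called (adjusted p = 0.392 and 0.93). All 4 arrays against 3 wk were thus below 0, and those against 4 wk lay on both sides. The interactions with sex were -0.29 and -0.26, not called (adjusted p = 0.526 and 0.694).

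The Krt7 probe was dim, with a processed signal of 17.2 to 104 in any channel. With normexp background correction and loess the decreases shrank to log2 -0.26 in M8/M3 (adjusted p = 0.103) and -0.20 in F8/F3 (adjusted p = 0.206), and both calls were lost. The M8/M3 call was also lost without the first M8/M3 array (fitted -0.66, adjusted p = 0.106). With the replicate number as a block, the F8/F3 call was lost as well (adjusted p = 0.0526), as it was without the second M8 pool (adjusted p = 0.051), and in all it was lost under 13 of 28 alternatives.

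Krt19 fell in males. Its log2 ratio was -0.80 and -0.52 in M8/M3 (fitted -0.66 ± 0.13, 1.58-fold, adjusted p = 0.00884) and -0.65 and -0.53 in M8/M4 (fitted -0.59, 1.51-fold, adjusted p = 0.0141). In F8/F3 it was -0.62 and -0.33 (fitted -0.47, adjusted p = 0.0335), past the p threshold and under the fold threshold, and in F8/F4 -0.44 and -0.09 (adjusted p = 0.189). All 8 age arrays lay below 0, and the interactions with sex were not called (adjusted p = 0.595 and 0.465), so a call in males and none in females does not show a sex difference. Without the first M8/M3 array the M8/M3 call was lost (adjusted p = 0.103), and without either M8/M4 array the M8/M4 call was lost (adjusted p = 0.107 and 0.0901). With normexp background correction and loess both ratios lay under the fold threshold (log2 -0.40 and -0.49), and without the second M8 pool neither passed the p threshold (adjusted p = 0.131 and 0.192).

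The levels of the keratins at 3 and 4 wk varied between pools. The Krt7 pools of F4 lay at 5.63 and 4.38, so F4 overlapped all other groups. M8 (4.80 and 4.47) and F8 (4.79 and 4.55) overlapped each other and lay below M3 (5.53 and 5.22), F3 (5.34 and 5.01) and M4 (5.78 and 4.95), which overlapped among themselves. For Krt19, M8 (6.35 and 6.51) and F8 (6.45 and 6.48) overlapped each other and lay below the pools of all younger groups (6.55 to 7.14).

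Mesothelial markers fell with the keratins from 3 wk. From 4 wk in males they fell with Krt19, while Krt7 was not called (fitted log2 -0.23, adjusted p = 0.392). Among the 3 genes most similar in pattern to Krt7 were Msln (r = 0.939) and Upk3b (r = 0.935), of the mesothelium that covers the liver and also makes keratins 7 and 19, beside Npdc1 (r = 0.944). For Krt19 they were Hsph1 (r = 0.981), Ackr3 (r = 0.958) and Nkain4 (r = 0.957). Of 7 mesothelial markers, all tested, the test called 6 down in M8/M3 (beside 9.34% of all probes) and 5 in M8/M4 (beside 5.98%), with median log2 ratios of -1.17 and -0.67. In females it called 3 down in F8/F3 (beside 6.02%) and 0 in F8/F4 (beside 3.29%), with medians of -0.67 and -0.39. Msln, which encodes mesothelin, fell 2.60-fold in M8/M3 and 1.97-fold in F8/F3, and Upk1b fell 2.98-fold and 1.80-fold. The summed signal of the 7 genes was 1370 to 1520 in the M3 pools, 1360 to 1430 in F3, 677 to 714 in M8 and 865 to 917 in F8, and all 7 were above background in some channel. Their part in the keratin result was not tested.

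**Figure D5:**
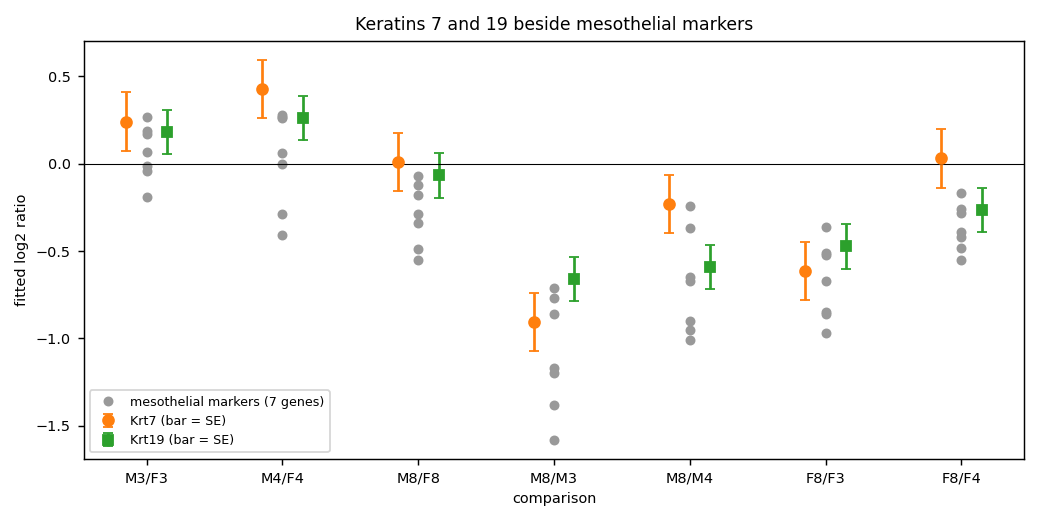
Fitted log2 ratio (vertical axis) in the 7 comparisons for Krt7 and Krt19, with SE bars, and for 7 mesothelial markers as grey points. In M8/M3 and F8/F3 the keratins lie at -0.91, -0.66, -0.61 and -0.47, and the mesothelial markers at -1.58 to -0.71 in M8/M3.

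Of 19 relatives (other keratins, claudins and SOX factors, Prom2, and Ibsp and Dmp1, of the osteopontin family), 15 were tested in M8/M3 with 4 called down, beside 9.34% of all tested probes, and 16 in F8/F3 with 2 called down, beside 6.02%, and 1 called up, beside 5.81%. Krt20, a keratin of intestinal epithelium, was not well above background on the 8 wk side. It was at least 1.81-fold lower in M8/M3 (adjusted p = 0.000731) and at least 2-fold lower in F8/F3 (adjusted p = 0.000478). Cldn1 fell in M8/M3 (log2 -0.68), F8/F3 (log2 -0.79) and F8/F4 (log2 -0.66). The hepatocyte keratins Krt8 and Krt18 were called in no age comparison and not in M8/F8.

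Spp1 encodes osteopontin, a secreted phosphoprotein of duct cells and macrophages that binds integrins and CD44. The 250 bases before its upstream start (GRCm38.p6, plus strand, chr5:104434861-104435110) are shown as Spp1 was the gene called higher in males. Capitals mark a TATAAA and, on the reverse strand, a CCAAT, which are in 12.4% and 33.8% of all windows. The TATAAA lies at -211, far from the start, and the CCAAT at -46.
Spp1: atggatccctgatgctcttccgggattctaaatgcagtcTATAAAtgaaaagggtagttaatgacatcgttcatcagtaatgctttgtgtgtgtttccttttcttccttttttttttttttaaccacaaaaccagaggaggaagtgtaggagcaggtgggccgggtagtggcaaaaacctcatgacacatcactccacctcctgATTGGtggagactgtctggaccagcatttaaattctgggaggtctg

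Spp1 was above 0 on all 6 arrays of male over female. Its log2 ratio was 0.90 and 0.17 in M3/F3 (fitted 0.54, adjusted p = 0.148), 1.21 and 0.62 in M4/F4 (fitted 0.92 ± 0.23, adjusted p = 0.0266) and 0.45 and 0.74 in M8/F8 (fitted 0.59, adjusted p = 0.112). M4/F4 alone was called, and the 95% intervals of the 3 ratios (0.00 to 1.07, 0.38 to 1.45 and 0.06 to 1.13) overlap. The M4/F4 call was lost without either of its arrays (adjusted p = 0.182 and 0.121) without a dye term (adjusted p = 0.0553), and without the second M8 pool (adjusted p = 0.0583). The M8/F8 ratio of Spp1 was called in 3 settings. These were shared pools in the covariance (adjusted p = 0.0403), 6 group means (adjusted p = 0.016) and error-weighted means. The last gave an unadjusted normal p of 8.23e-05 against its own threshold of 1e-04.

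With age Spp1 was not called. The M8/M3 ratios were -0.92 and -0.06 and the M8/M4 ratios -0.76 and 0.20, on both sides of 0 for M8/M4, and the fitted ratios were -0.49 (adjusted p = 0.18) and -0.28. In females the F8/F3 ratios were -0.45 and -0.63 (fitted -0.54, 95% interval -1.07 to 0.00, adjusted p = 0.145) and the F8/F4 ratios -0.01 and 0.06. F4 (11.56 and 11.37) and F8 (11.62 and 11.42) were the lowest groups and overlapped each other, and M3 (12.98 and 12.47) and M4 (12.79 and 12.10) were the highest and overlapped too.

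Ccdc93 (r = 0.966), Nupl1 (r = 0.963) and Med10 (r = 0.95) had the patterns most like that of Spp1. Macrophage markers went the other way between the sexes: 4 of 7 tested (Marco, Adgre1, Clec4f and C1qa) were called lower in M8 than in F8, beside 6.98% of all probes called in either direction, and the summed signal of the 9 macrophage genes was 21900 to 27000 in M8 and 34300 to 37200 in F8. In M4/F4, where Spp1 was called, Marco alone of the 7 was called (log2 -0.69), beside 1.77% of all probes, and the summed signal was 34600 to 37400 in M4 and 42700 to 45400 in F4. Gpnmb was above background in no channel, and the part of macrophages in the Spp1 result was not tested. Of the 7 receptors of osteopontin, all tested, Itgb3 was called down in F8/F3 (log2 -0.63), and that was the single call among them in the 7 comparisons.

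Epcam encodes a homophilic adhesion protein of epithelia that marks duct and progenitor cells and is absent from mature hepatocytes. Its promoter window, on the plus strand of chromosome 17 (GRCm38.p6, chr17:87635729-87635978), had a single GGGCGG, on the reverse strand at -58. Epcam was called in no comparison, and 1 RNA pool stood apart. The arrays with the first M8 pool had log2 ratios of -0.31 in M8/F8, -0.31 in M8/M3 and -0.18 in M8/M4, and those with the second M8 pool had 1.16, 1.17 and 1.05. The second M8 pool was thus higher than the other group on all 3 of its arrays, which lay on 2 slides scanned on different days. What set this pool apart was not tested, and the calls that change without it are given beside each gene.

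On the remaining 8 arrays, which hold no M8 pool, Epcam ranged from -0.30 to 0.37. The SE of its fitted ratios was 0.46, and the 95% intervals reached from -0.64 to 1.49 in M8/F8 and from -1.05 to 1.07 in F8/F3, so a change of 2-fold in either direction lies inside the latter. The level of the second M8 pool was 7.03, and the other 11 pools lay between 5.70 and 6.24. Plet1, a surface protein of epithelial progenitors, was most similar in pattern (r = 0.939), with -0.03, 0.09 and 0.16 on the arrays of the first M8 pool and 1.68, 1.81 and 1.70 on those of the second. Plet1 was looked at after the Epcam values were seen. The levels of the other duct markers in the first and second M8 pool were 4.80 and 4.47 for Krt7, 6.35 and 6.51 for Krt19, and 8.78 and 8.39 for Sox9, so none of these 3 differed between the pools by as much as Epcam did (5.70 and 7.03).

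Cldn4 encodes a claudin, a strand protein of tight junctions between epithelial cells. Both of its probes (NM_009903) were well above background in 4 of 28 channels, and for no group on both arrays of a comparison, so it was not tested in any comparison. The probe of lower mean signal was detected on the first M4/F4 array (processed signals of 67.4 for M4 and 63.4 for F4). It was also detected on the first M8/F8 array (26.0 for M8 and 23.2 for F8). The main probe was detected on the first M4/F4 array (58.3 for M4 and 57.7 for F4). Further detections of the main probe were in M8 on the first M8/F8 array (17.2) and in M4 on the second M8/M4 array (11.1). No fold is given for Cldn4.

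A few of the other cholangiocyte genes were called, in both directions. Of 18 further genes (such as Sctr, Cftr, Pkhd1 and Muc1), 15 were tested in M8/M3 with 1 called up (beside 8.66% of all probes) and 3 down (beside 9.34%), and 16 in F8/F3 with 2 called up (beside 5.81%) and 3 down (beside 6.02%). Their median log2 ratio from 3 wk was 0.05 for either sex. From 4 wk 16 were tested. In males 1 was called up (beside 5.06%) and 1 down (beside 5.98%), with a median of -0.02, and in females 1 was called up (beside 2.86%) and 0 down (beside 3.29%), with a median of 0.13. Most of these counts were thus near the shares of all probes. Cftr, the chloride channel of duct cells, rose from 3 wk by 2.68-fold in males and 2.18-fold in females, and from 4 wk by log2 0.59 in males and 0.85 in females. Spint1, a protease inhibitor of epithelia, rose in F8/F3 (log2 0.62). Elf3, an epithelial transcription factor, fell in M8/M3 (log2 -0.79), M8/M4 (log2 -0.74) and F8/F3 (log2 -0.78), and so did Bicc1 and Ddr1 in M8/M3 (log2 -0.93 and -0.67) and F8/F3 (log2 -0.60 and -0.59). Elf3 was higher in M4 than in F4 (log2 0.57 and 0.78, fitted 0.67, adjusted p = 0.0313), 1 of 12 tested beside 1.77% of all probes. None of 14 tested was called in M8/F8, where Dcdc2a (log2 -0.30, adjusted p = 0.0203) and Atp1b1 (log2 -0.26, adjusted p = 0.0145) passed the p threshold and lay under the fold threshold.

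Of 10 further progenitor and ductular reaction genes, 8 were tested, and 2 were called down in M8/M3 (beside 9.34% of all tested probes) and 2 in F8/F3 (beside 6.02%). Itga6, a laminin receptor, fell 4.92-fold in M8/M3 and 2.62-fold in F8/F3, and Ncam1, an adhesion protein of reactive ductules, fell 2.12-fold and 1.81-fold. The F8/F3 arrays of Itga6 were apart, at log2 -1.89 and -0.88. Of the fetal hepatoblast genes, 3 of 4 tested were called down for M8/M3 (beside 9.34% of all probes) and 3 of 4 for F8/F3 (beside 6.02%). Gpc3, a glypican, fell 9.62-fold in males and 7.01-fold in females. Dlk1, a surface protein of hepatoblasts, was called down in both sexes (adjusted p = 0.0137 in males and 0.00235 in females), with bounds of at least 1.06-fold and 1.17-fold, since neither M8 nor F8 was well above background. Afp, which encodes a serum protein of the fetus, was called in females (fitted log2 -2.26, with arrays far apart at -1.29 and -3.24) and not in males (fitted -1.69, adjusted p = 0.0519). Igf2, a fetal growth factor, was called down in males (adjusted p = 0.014), at least 1.17-fold with M8 not well above background, and was not called in females (adjusted p = 0.116). Of the markers of stellate cells and portal fibroblasts, which lie beside the ducts, 5 of 10 were called down in M8/M3 and 4 of 10 in F8/F3, beside the same shares of all probes, and the others were not called. Among those called were Col1a1 (4.75-fold and 3.82-fold), Col3a1 (4.57-fold and 3.26-fold) and Eln (log2 -2.17 and -1.75).

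Among the 8 genes, pairs differed in how alike their ratios were over the 14 arrays. Krt7 and Krt19 (r = 0.84), Krt19 and Cd24a (r = 0.84) and Spp1 and Cd24a (r = 0.87) were the most alike. Prom1 was not like Sox9 (r = -0.05) and little like Spp1 (r = 0.18), and Epcam was near or below 0 with most others, at -0.37 with Prom1. The arrays share pools, and the age arrays outnumber the others, so these values describe the 14 arrays and no more.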

How the data were processed

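Liver RNA of 6 groups was hybridized to 14 arrays. The deposited scanner output holds, per spot, the log10 ratio of red over green that the authors obtained with Agilent Feature Extraction 10.7.1.1, in which background was subtracted and dyes were balanced by linear and LOWESS steps, the processed intensity of each channel, and a software score for the error of the log10 ratio. Log10 ratios were converted to log2 and turned by the dyes in the labels. Spots of a probe were averaged, 0 to 10 non-uniform spots per array were left out, and symbols came from RefSeq accessions (26055 probes). The probe with the highest mean signal stood for its gene.

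Ratios were fitted with limma 3.58.1 in R 4.3.3, with 7 comparison coefficients and 1 dye term (6 residual degrees of freedom). Benjamini-Hochberg adjustment ran over all tested probes and the 7 comparisons, and, for each interaction or indirect contrast, over its own probes. Calls needed an adjusted p under 0.05 and a ratio above 1.5 or below 0.667. For a group well above background on neither array, a fold is a lower bound, from channel means after normexp, loess and Aquantile, with the dim group at the lowest signal called well above background or at its own, if higher. The spread behind a p-value was estimated for each probe from all arrays together, not from the 2 arrays of its own comparison. For Krt7, the SE was 0.168 both in F8/F3 (SD of the 2 arrays 0.016) and in M8/M4 (SD 0.393). The main fit treated arrays as independent, although pools recur across comparisons. The number of pools, 2 per group, limits the precision. In place of the study's Rosetta error model, which was not run, an error-weighted mean was an alternative. Its calls used an unadjusted normal p under 1e-04 in place of the adjusted p. Members and gene lists were chosen with earlier results of these data known. All probes of the 8 genes are given. From each list, up to 4 called genes with the largest change and the same sign on both arrays are named, and others were chosen after their values were seen. Replicate numbers pair the samples, since same-numbered pools recur across comparisons (loop correlations of r = 0.913 and 0.904 over 20451 probes). Promoters (250 bases before a start) came from the RefSeq table of GRCm38.p6, which held 5 of the 8 genes and none of Krt19, Sox9 and Cd24a.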

Additional observations from a re-analysis of the deposited data

Results flagged for a closer look

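The difference between the sexes in the change of Prom1 with age passed its own test at both steps, under all 28 alternative settings from 3 to 8 wk and under all but 4 of them from 4 to 8 wk, where the adjusted p rose to as much as 0.0886. The log2 ratio of M8/M3 was lower than that of F8/F3 by -2.75, and the log2 ratio of M8/M4 was lower than that of F8/F4 by -1.94. Both arrays of each male comparison lay below both arrays of the female one. No outlier test was made, since each group had 2 pools.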

How the results depend on the processing

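Of 2156 recomputed values of the 7 tested genes, 2088 kept their status as called or not called, 51 lost and 17 gained a call, and no called value turned its sign. The sign turned for 50 values, none of them called, with a log2 ratio of at most 0.44 in size before the change. With normexp and loess, members called were 2 in M8/F8, 2 in M8/M3 and 2 in F8/F3. Without a dye term 1 was called in M4/F4. With shared pools in the covariance 3 were called in M8/F8 and 2 in F8/F3. With 6 group means 3 were called in M8/F8, 1 in M4/M3 and 1 in F4/F3 through the 8 wk pools, and with error-weighted means 3 in M8/F8. Without the second M8 pool, a setting added once the Epcam values were known, 1 was called in M4/F4 and 2 in M8/M4, while F8/F3 had 2 and the interaction from 4 to 8 wk had 0. Leaving out 1 array at a time gave 0 to 0 members called in M3/F3, 1 to 2 in M4/F4, 1 to 1 in M8/F8, 2 to 4 in M8/M3 and also in M8/M4, then 1 to 4 in F8/F3, while F8/F4 had 1 to 3, with 1 to 1 and 0 to 1 in the interactions and 0 to 0 in M4/M3 and F4/F3. The replicate block lost Krt7 in F8/F3 (log2 -0.61, adjusted p = 0.0526) and changed no other call of a member, and neither the slide as a random block nor a dye term for each scan day lost a call. Counts over all probes moved more. Without the fold threshold they were 789 in place of 149 in M3/F3, 5061 in place of 1627 in M8/F8 and 10492 in place of 4562 in M8/M3, and with normexp and loess 1030 and 2114 in the last 2. With 6 group means they were 714 in place of 77 in M4/M3 and 431 in place of 33 in F4/F3. Signal limits Cldn4 and Krt7, since the software calls both near background in some channels.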
